A study of Arabidopsis thaliana with 44 samples.

Results

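Narrow regions of the histone variant H2A.Z that lie outside the Polycomb mark H3K27me3 were followed in shoots of Arabidopsis thaliana. The regions are those of at most 1000 bp in the authors' H2A.Z region table of pkl-1 replicate 2 that share 0 bp with any H3K27me3 region called for pkl-1 replicate 2. They number 4943 of the 17188 H2A.Z regions in that table, or 28.8%, and are called narrow peaks below. All plants were 3 weeks old and had grown in soil with 16 h of light. Groups are WT and plants labelled pkl-1, clf-28 and pie1-5, with no other allele or treatment named in the labels. Each genotype has 2 H2A.Z and 2 H3K27me3 chromatin immunoprecipitation (ChIP) libraries and 3 RNA libraries, which the series calls independent biological replicates. Each material is a whole shoot, so every value is a mixture of cell types, and fewer cells with H2A.Z at a place cannot be told apart from less H2A.Z per cell. Input and histone H3 samples of the series were not used here, and no value is set against nucleosome density.

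H2A.Z replaces the canonical histone H2A in nucleosomes. The SWR1 complex, whose ATPase in plants is PIE1, exchanges it in, and in many eukaryotes H2A.Z is enriched in the first nucleosomes downstream of transcription start sites. In plants it also spreads over the bodies of genes that respond to the environment. PKL is a chromatin remodeler of the CHD3 type, and CLF is a catalytic subunit of Polycomb repressive complex 2, which writes H3K27me3.

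The rule limits the narrow peaks to 1000 bp. Within that limit their median width was 600 bp, in steps of the 200 bp windows in which regions were called: 61 peaks spanned 200 bp, 825 spanned 400 bp, 1789 spanned 600 bp, 1327 spanned 800 bp and 941 spanned 1000 bp. Together they covered 3.42 Mb, which was 9.07% of the sequence inside H2A.Z regions, and held 6.66% of the reads of the WT library and 6.69% of those of pkl-1 replicate 2. A peak held a median of 242 WT reads, from 21 to 859. They lay on all 5 nuclear chromosomes, with 1256, 791, 968, 774 and 1154 peaks on chromosomes 1 to 5, or 25.4%, 16.0%, 19.6%, 15.7% and 23.3% of the peaks against 26.7%, 15.7%, 19.3%, 15.3% and 23.0% of all H2A.Z regions. The gap to the nearest other H2A.Z region had a median of 1800 bp, against 1600 bp over all regions.

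Of the 4943 narrow peaks, 3318 (67.1%) lay wholly inside a protein-coding gene, 1283 (26.0%) covered an end of a gene and 342 (6.92%) touched no protein-coding gene. Narrow regions that did touch H3K27me3, of which there are 946, lay inside a gene in 36.7%, covered a gene end in 34.2% and touched no gene in 29.1%. At equal width the shares still differed: of regions of 600 bp, 7.27% of the 1789 outside H3K27me3 and 26.7% of the 258 touching it had no gene. Wide regions outside H3K27me3 covered a gene end in 79.7%, which their length favours. No test was made of these shares, since regions are not replicates.

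**Figure D1:**
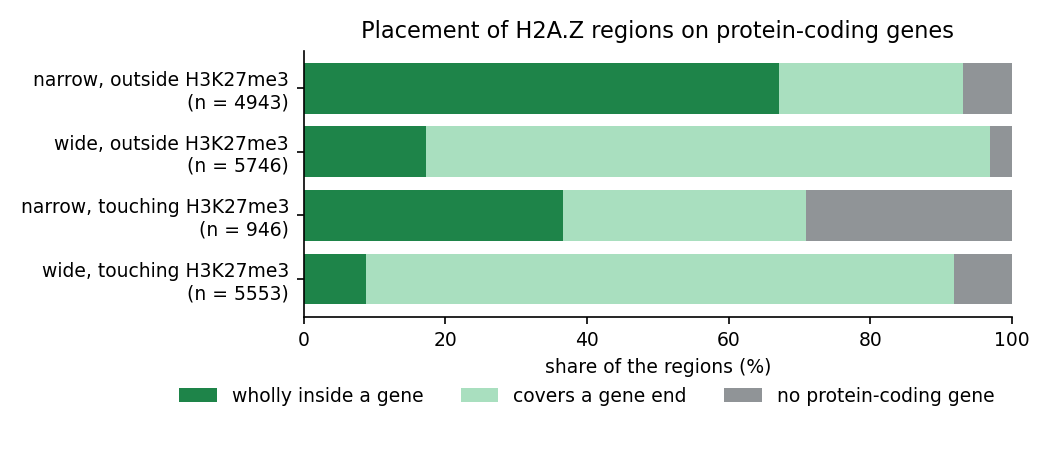
Share of regions (x axis, percent) that lie wholly inside a protein-coding gene, cover a gene end or touch no gene, for narrow (at most 1000 bp) and wide H2A.Z regions outside and touching H3K27me3 (y axis, with the number of regions). The dark green part is 67.1% in the narrow peaks outside H3K27me3 and 36.7% in the narrow regions touching it.

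Inside genes the narrow peaks sat close to an end. For the 3300 peaks that lay inside exactly 1 protein-coding gene (3274 genes), the middle of the peak was a median of 441.5 bp from the nearer gene end (quartiles 361.5 and 545.75 bp), and the edge of the peak a median of 116 bp from it. In 95.3% of them the edge lay within 400 bp of the gene end, although the genes spanned a median of 2729.5 bp, longer than the 2078 bp of all annotated protein-coding genes. The 347 narrow regions touching H3K27me3 and inside 1 gene had their middles a median of 505.5 bp from the nearer end, in genes of 1931 bp. A peak inside a gene cannot have its middle nearer to the end than the middle is to its own edge, which sets the lower limit of these distances. The gene table used for placing gives no strand, so a gene's start could not be told from its end. Most of these genes carried a single region: 396 of the 3274 (12.1%) had another H2A.Z region, 240 of them a wide region outside H3K27me3 and 94 a region touching it.

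**Figure D2:**
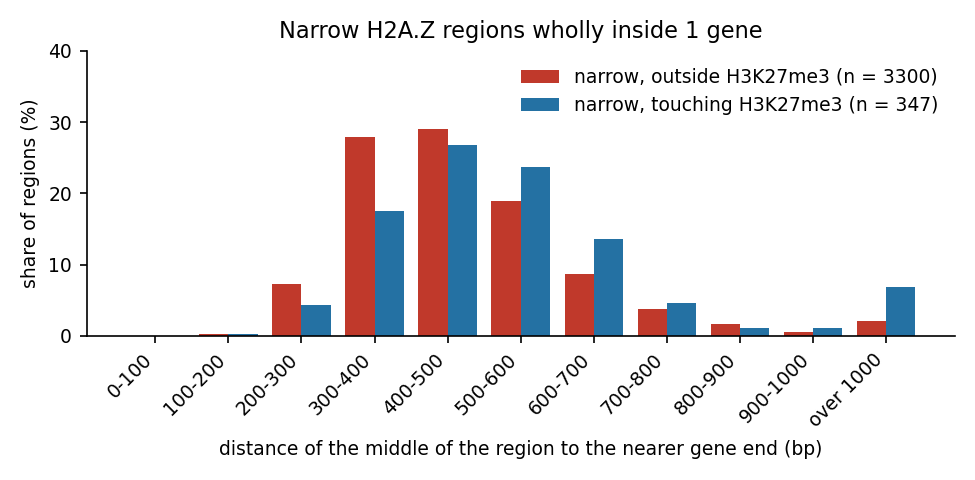
Distance in bp from the middle of a narrow H2A.Z region to the nearer end of the gene it lies in (x axis, classes of 100 bp), as a share of regions in percent (y axis), for 3300 regions outside H3K27me3 and 347 touching it. Outside H3K27me3 the classes from 300 to 500 bp hold the most regions, 27.8% and 29.0%, and 2.09% lie beyond 1000 bp.

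The 5 peaks with the highest WT level in replicate 2, in reads scaled to library size per kb of region (RPM per kb), lay at the arabinogalactan protein genes AGP7 (71.0) and AGP6 (52.6), at AT1G55770 (52.2), at the ovate family gene OFP1 (48.3) and at the argonaute gene AGO2 (48.2), against a median of 18.9 over all narrow peaks. They were ranked by that WT library, and the other WT library was lower at each of them where the matched region was at most 1000 bp: AGP6 (chr5:4636001-4636600, TAIR10) stood at 26.0 RPM per kb there, AT1G55770 (chr1:20851001-20851800) at 41.1, OFP1 (chr5:324601-325400) at 29.8 to 34.7 and AGO2 (chr1:11181601-11182200) at 22.7 to 33.8. The AGP7 peak (chr5:26128801-26129400, inside the gene) was merged into a region of 3200 bp with 16.2 RPM per kb in the replicate 1 tables.

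Before the comparisons, the libraries need a description. The WT libraries for H2A.Z were the deepest, of 19.1 M and 19.3 M reads, and the mutant libraries ranged from 7.62 M (clf-28 replicate 2) and 8.22 M (pie1-5 replicate 1) to 14.8 M (pkl-1 replicate 1). Each table sets 1 mutant library against WT, and the 3 replicate 1 tables share 1 WT library, as do the 3 replicate 2 tables, so the comparisons of the 3 mutants share their controls. In the replicate 1 tables the largest single region held 168084 to 483166 mutant and 201178 to 203791 WT reads, against at most 24110 in the replicate 2 tables. The share of mutant reads inside regions was 58.4% and 65.8% in pkl-1, 55.6% and 61.8% in clf-28 and 55.6% and 49.6% in pie1-5. For WT reads in the same regions it was 57.4% and 66.2%, 63.5% and 65.7%, and 64.3% and 64.2%. The part of these shares in the results below was not tested. A narrow peak was followed into another table by the region that overlapped it most. A match was found for 1356 peaks (27.4%) in pkl-1 replicate 1, whose table lists 10242 regions against 16261 to 17310 in the others, for 3582 (72.5%) and 4458 (90.19%) in clf-28, and for 3545 (71.7%) and 4344 (87.9%) in pie1-5. A match in every table was found for 1301 peaks, and in no other table for 312. Peaks without a match had lower WT levels, for example 16.6 against 19.9 RPM per kb in pie1-5 replicate 1, so the values below describe the more strongly marked peaks. Between 170 and 539 of the matched regions were wider than 1000 bp.

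The largest departure from WT at narrow peaks was in pie1-5, the mutant of the ATPase that deposits H2A.Z. Scaled to library totals, the median log2 ratio of pie1-5 to WT was -1.44 over 3545 peaks in replicate 1 and -0.49 over 4344 in replicate 2, so that the median peak stood at 36.9% and 71.2% of WT. H2A.Z was below WT at 99.5% of the peaks in replicate 1 and at 90.24% in replicate 2. Both replicates placed pie1-5 below WT, but at very different depths: the ratio was lower in replicate 1 at 3229 of the 3345 peaks matched in both tables (96.5%).

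No single narrow peak passed the test. With edgeR's quasi-likelihood test and Benjamini-Hochberg adjustment over all 14875 regions, 0 of 3345 peaks were lower and 0 higher at an adjusted p below 0.05, where 0% of all regions were called lower and 0.00672% higher. DESeq2 also called 0 of the peaks, and of all 14875 regions 0 lower and 11 higher. At an unadjusted p below 0.05, 557 peaks were lower and 0 higher, where 12.6% of all regions were lower and 0.00672% higher. With TMM factors in place of library totals, which moved the median fitted log2 ratio of all regions from -0.73 to 0.02, these counts were 210 lower and 104 higher. Shares of all regions with TMM factors are not given, so the TMM counts are not set against a background. The 2 pie1-5 libraries weighed unequally in the edgeR fit with library totals: the fitted median was -1.50 without pie1-5 replicate 2 and -0.43 without pie1-5 replicate 1. In such fits the pie1-5 arm is 1 library, assumed to vary like the 2 WT libraries, which alone give the spread. They called 3168 of the 3345 peaks lower without replicate 2, as they did 14119 of all 14875 regions, and 0 without replicate 1. Both pie1-5 libraries lay below both WT libraries at 2631 peaks (78.7%), against a background of 85.8% over all regions tested, and both lay above at 0 peaks, against 0.0471%. For the 1301 peaks matched in all 6 tables, the H2A.Z level pooled over the whole matched regions was 8.16 and 17.5 RPM per kb in pie1-5 and 20.1 and 22.9 in WT. Some matched regions are wider than the peak and they differ between mutants, so the WT values differ too. The groups did not overlap, and the exact two-sided permutation test over the libraries gave p = 0.33, the smallest it allows with 2 against 2.

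Relative to other H2A.Z regions the narrow peaks lay lower in pie1-5. Their median was 0.28 log2 units below that of all regions in replicate 1 and 0.07 below it in replicate 2. In replicate 1 the medians were -1.44 for narrow peaks outside H3K27me3, -1.19 for wide regions outside it, -1.07 for narrow regions touching it and -1.04 for wide regions touching it. In replicate 2 the order was the same, with -0.49, -0.42, -0.39 and -0.39. A ratio at least 1.5-fold below WT in both replicates was found at 1269 narrow peaks (37.9%), against 22% of all regions. In the fitted values the members' median stood 0.14 log2 units below that of all regions with library totals and 0.16 below it with TMM factors. A narrow peak held a median of 40 reads in pie1-5 replicate 1 and 96 in replicate 2, which gives its log2 ratio a counting SD of 0.25 and 0.17, and the part of counting error in the 1.5-fold share was not tested.

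The position of the narrow peaks among the classes was then read by WT level. When all regions were divided into 4 equal classes by WT level in replicate 2, the narrow peaks of pie1-5 replicate 1 had medians of -1.29, -1.40, -1.46 and -1.47 from the lowest to the highest class, and the wide regions touching H3K27me3 had -0.94, -0.999, -1.09 and -1.19. In replicate 1 the narrow peaks had the lowest median of the 4 kinds of region in each class. In replicate 2 the medians were -0.40, -0.48, -0.52 and -0.49 against -0.38, -0.39, -0.40 and -0.38, and the narrow regions touching H3K27me3 were lower than the narrow peaks in the lower classes (-0.46 and -0.49) and higher in the upper ones (-0.43 and -0.30). In the lowest class of replicate 2 the narrow peaks, at -0.40, were close to the wide regions outside H3K27me3 (-0.39) as well as to those touching it. The WT library that sets the classes is also the denominator of the replicate 2 ratios. At the width limit itself the values changed little: regions outside H3K27me3 of 1000 bp (941, members) had medians of -1.34 and -0.48 in pie1-5, and those of 1200 bp (896, not members) had -1.31 and -0.45.

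**Figure D3:**
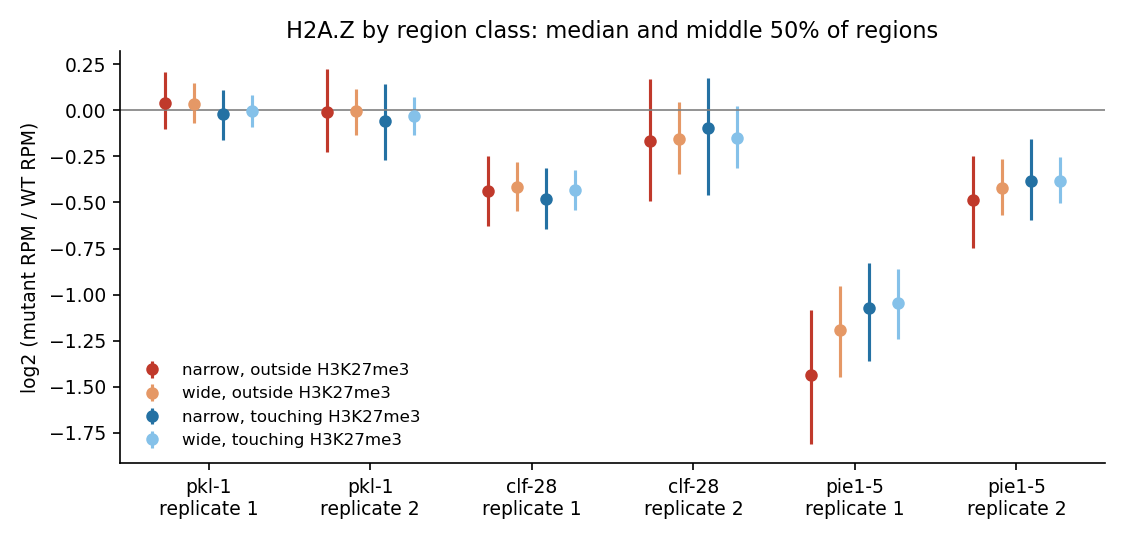
Median log2 ratio of mutant to WT H2A.Z (y axis, RPM over RPM) in the 6 tables (x axis), by region class. Points are medians over regions and bars the middle 50% of regions, not errors between libraries. In both pie1-5 tables the narrow peaks outside H3K27me3 (red) have the lowest median, -1.44 and -0.49.

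The 4 narrow peaks farthest below WT in pie1-5 were picked after their values were seen, among those with at least 100 reads in mutant or WT in each table, matched regions of at most 1000 bp and both mutant libraries below both WT libraries. At AT1G21590 (chr1:7569201-7570000, inside the gene), H2A.Z was 4.11 and 5.09 RPM per kb in pie1-5 and 19.5 and 21.5 in WT. At AT1G56310 (chr1:21082601-21083000, inside the gene), it was 4.87 and 8.0 in pie1-5 and 21.4 and 33.4 in WT. At both genes the pie1-5 libraries lay far below both WT libraries, with log2 ratios of -2.25 and -2.08 at the former and -2.13 and -2.06 at the latter. The other 2, at chr4:5494601-5495200 and chr1:15652801-15653400, touch no protein-coding gene and had log2 ratios of -2.81 and -1.87, and of -3.14 and -1.73. The adjusted p of each of the 4 was 0.276 in edgeR's quasi-likelihood test.

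In clf-28, H2A.Z at narrow peaks was below WT in replicate 1 and near it in replicate 2, and its medians were close to those of all H2A.Z regions. The median log2 ratio was -0.44 over 3582 peaks and -0.16 over 4458, against -0.43 and -0.15 over all regions, so the difference from all regions was -0.01 in each. Wide regions touching H3K27me3, the mark that CLF writes, had -0.43 and -0.15. H2A.Z was below WT in both replicates at 2014 of 3424 peaks (58.8%), against 66.1% of all regions, and both clf-28 libraries lay below both WT libraries at 1521 (44.4%), against 53.5%, and above both at 35 (1.02%), against 0.533%. A ratio at least 1.5-fold below WT in both replicates was found at 193 peaks (5.64%), against 2.81%. A narrow peak held a median of 108 reads in clf-28 replicate 1 and 94 in replicate 2, with a counting SD of 0.17 in each. The part of counting error in this share was not tested. The edgeR quasi-likelihood test called 0 of 3424 peaks lower and 0 higher, as it did over all 15012 regions (0%). DESeq2 called 0 of the peaks, and of all regions 0 lower and 5 higher. At an unadjusted p below 0.05, 426 peaks were lower and 2 higher, where 11.3% of all regions were lower and 0.0666% higher. With TMM factors these were 48 lower and 43 higher and the fitted median went from -0.27 to 0.00, as did that of all regions (-0.27 to 0.00). The TMM counts have no share of all regions beside them. The peaks' ratios in the 2 replicates were nearly unrelated (Pearson r = 0.05, Spearman rho = 0.03 over 3424 peaks, which share libraries).

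Single peaks in clf-28 were chosen after their values were seen, by the rule used for pie1-5. The 4 farthest below WT were at AT3G57880, AT1G70740, AT3G15480 and CPK4. At AT3G57880 (chr3:21434001-21435000, covering a gene end), H2A.Z was 5.94 and 3.54 RPM per kb in clf-28 and 17.5 and 11.8 in WT. At AT3G15480 (chr3:5227401-5227800, inside the gene) it was 7.27 and 5.58 in clf-28 and 18.2 and 19.5 in WT. At AT1G70740 (chr1:26675201-26676000, inside the gene), H2A.Z was 7.69 and 5.41 RPM per kb in clf-28 and 19.7 and 18.8 in WT, and at the calcium-dependent protein kinase gene CPK4 (chr4:6049601-6050000, inside the gene) it was 9.37 and 8.86 against 20.3 and 18.9. Of the 3 farthest above WT, the first was IQD22 (chr4:12087201-12087800, inside the gene), a calmodulin-binding IQ-domain gene, with 25.3 and 32.8 in clf-28 and 14.3 and 20.5 in WT. The others were AT2G35920 with a fitted log2 ratio of 0.41 and the glutamate receptor-like gene GLR3.4 with 0.56. The clf-28 and WT libraries did not overlap at any of the 7, as the choice requires, and each had an adjusted p of 0.412 in edgeR's quasi-likelihood test. The same AT1G70740 peak stood at 3.89 and 6.06 in pie1-5, against the same WT libraries.

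In pkl-1, H2A.Z at narrow peaks stood at the WT level. The median log2 ratio was 0.04 over 1356 peaks in replicate 1 and -0.01 over 4943 in replicate 2, with 42.3% and 51.0% of the peaks below WT. The level pooled over the whole matched regions of the 1301 peaks matched everywhere was 19.1 and 23.9 RPM per kb in pkl-1 and 18.6 and 24.0 in WT (exact two-sided permutation test, p = 1). The edgeR quasi-likelihood test called 0 of 1356 peaks lower and 0 higher, where 0.00936% of all 10689 regions were called lower and 0% higher. DESeq2 called 0 of the peaks, and of all regions 3 lower and 11 higher. At an unadjusted p below 0.05, 6 peaks were lower and 15 higher, where 1.57% and 1.36% of all regions were. Peaks with H2A.Z below WT in both replicates numbered 348 (25.7%) and those above it 410 (30.2%), against 29.1% and 29.7% of all regions. Both pkl-1 libraries lay below both WT libraries at 171 peaks (12.6%, against 16.4%) and above both at 177 (13.1%, against 14.9%), and 2 peaks (0.147%) were at least 1.5-fold below WT in both replicates, against 0.122%. These shares are near or below the background. Replicate 2 of pkl-1 defined the peaks, and only 27.4% of them could be followed in replicate 1.

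The 4 narrow peaks farthest below WT and the 3 farthest above it in pkl-1 were chosen after their values were seen, in the same way. At AT1G63870 (chr1:23711401-23712000, covering a gene end), H2A.Z was 9.70 and 9.79 RPM per kb in pkl-1 and 24.6 and 20.2 in WT. At AT5G50410 (chr5:20529001-20529800, inside the gene) it was 25.6 and 27.8 in pkl-1 and 15.4 and 15.7 in WT, and at AT4G17440 (chr4:9727801-9728600, inside the gene) 35.4 and 44.0 against 22.8 and 28.1. The fitted log2 ratios of the others were -1.17 at a peak without a gene (chr3:1855801-1856200), -0.50 at GPDHp, -0.48 at AT2G04620 and 0.56 at AT1G04778. Both pkl-1 libraries lay on 1 side of both WT libraries at these peaks, as the choice requires, and the adjusted p of each was 1.00 in edgeR's quasi-likelihood test.

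**Figure D4:**
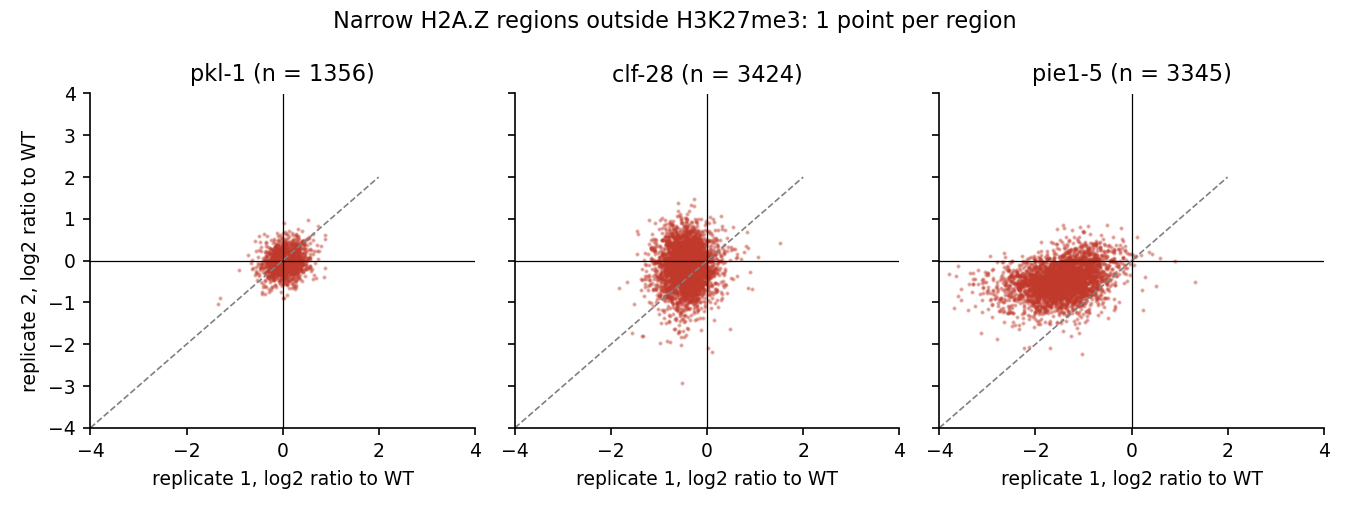
Log2 ratio of mutant to WT H2A.Z in replicate 1 (x axis) against replicate 2 (y axis), 1 point per narrow peak matched in both tables of the mutant (1356 in pkl-1, 3424 in clf-28 and 3345 in pie1-5). Dashed lines mark equal ratios. Points of pie1-5 lie left of the dashed line at 96.5% of the peaks, while those of pkl-1 centre near 0.

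H3K27me3 regions of the other tables reached few of the narrow peaks. H3K27me3 regions reached 51 peaks (1.03%) in pkl-1 replicate 1, 64 (1.29%) in clf-28 replicate 1, 92 (1.86%) in pie1-5 replicate 1 and 90 (1.82%) in pie1-5 replicate 2. The table of clf-28 replicate 2, whose library is the smallest with 3.17 M reads and which lists 8296 H3K27me3 regions against 5478 to 5893 in the others, reached 363 peaks (7.34%), in regions with a median H3K27me3 log2 ratio of clf-28 to WT of 2.70. In clf-28 replicate 1 that ratio was 0.77 over 63 regions. In all, 4411 peaks lay outside every H3K27me3 table and 532 inside at least 1. All H3K27me3 tables, the one used in the rule among them, have a WT library of the same size, 13.6 M reads. If these are 1 library, low overlap in the other tables is in part set by the rule.

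Among 147 genes in 13 lists of chromatin, clock, stress and housekeeping functions, 35 (23.8%) overlapped a narrow peak, against 4814 of 27444 annotated protein-coding genes (17.5%). Of 9 genes of SWR1 and H2A.Z, the actin-related SWR1 subunit genes ARP4 and ARP6 and the H2A.Z gene HTA9 had a narrow peak. Of 10 Polycomb genes they were VEL1, LHP1, which encodes a reader of H3K27me3, and MSI1, a WD40 subunit of Polycomb complexes. The CHD3 gene PKR1 was the 1 of 7 remodeler genes, and REF6, an H3K27 demethylase, the 1 of 3 demethylase genes. The clock list gave 5 of 16 (GI, ELF3, PRR9, CCA1 and LNK2), the housekeeping list 5 of 16 (TBP2, SAND, CDKA1, NRPB2 and TIP41) and the ribosomal protein list 1 of 13 (RPL24B). The heat list gave 3 of 12 (HSFA1D, HSFB1 and HSP90.1), light signalling 2 of 11 (PIF3 and DET1), photosynthesis 2 of 17 (PSBS and LHCA1), salicylic acid defence 3 of 14 (WRKY33, PAD4 and EDS5), flowering time 3 of 13 (FVE, FLD and FCA) and DNA methylation 3 of 6 (CMT3, KYP and DRM2).

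At 21 of these 35 genes the peak had a match in both pie1-5 tables. H2A.Z was below the WT library of the same table in both replicates at 20 of the 21, the exception being FCA, where 93.7% of all regions were, and both pie1-5 libraries lay below both WT libraries at 17 of the 21, where 85.8% of all regions did. These shares are near the background. At DET1 (chr4:6346401-6347200), a repressor of photomorphogenesis, H2A.Z was 4.56 and 13.9 RPM per kb in pie1-5, 19.5 and 23.6 in WT, 25.1 and 28.02 in pkl-1 and 16.6 and 15.6 in clf-28. The pie1-5 and clf-28 libraries lay below both WT libraries and the pkl-1 libraries above them. At CMT3 (chr1:26252801-26253600), a DNA methyltransferase for CHG sites, it was 12.8 and 19.6 in pie1-5 against 39.3 and 32.9 in WT, and at KYP (chr5:4501401-4502200), the histone methyltransferase that acts with it, 7.00 and 25.5 against 35.2 and 32.1. At FLD (chr3:3228601-3229600), a gene of the autonomous flowering pathway, it was 2.74 and 10.7 against 17.96 and 19.7. At PKR1 (chr5:18093001-18093800), the paralog of PKL, it was 4.46 and 14.9 against 18.4 and 21.8. In each of these genes the 2 pie1-5 libraries stood below both WT libraries, replicate 1 by more than replicate 2. At FCA (chr4:9214201-9214800) it was 9.73 and 23.3 against 19.9 and 22.3, so that replicate 2 did not share the lower level. Housekeeping genes varied: at TBP2 (chr1:20727801-20728800), the TATA-binding protein gene, H2A.Z was 5.07 and 9.70 in pie1-5 and 13.1 in each WT library, while at SAND (chr2:12142801-12143400) it was 3.65 and 18.8 against 16.3 and 19.1, so that replicate 2 stood near its WT library and above the other. At ARP6 (chr3:14095001-14095600) H2A.Z was 11.96 and 26.2 RPM per kb in pie1-5 against 23.4 and 28.4 in WT, at LHP1 (chr5:5829001-5829600) 7.54 and 20.1 against 13.6 and 24.7, and at MSI1 (chr5:23555601-23556600) 3.24 and 9.60 against 12.9 and 14.4. At the heat shock factor gene HSFA1D (chr1:11659801-11660400) it was 6.69 and 13.4 against 22.8 and 21.9, and at the pseudo-response regulator gene PRR9 (chr2:19232601-19233600) 7.15 and 12.1 against 19.5 and 21.5. At ARP6 and LHP1 replicate 2 of pie1-5 stood above the WT library of the replicate 1 tables. ARP4, HTA9, REF6 and HSFB1 had a match in pie1-5 replicate 2 alone, with 14.1, 11.2, 15.6 and 15.4 RPM per kb in pie1-5 against 19.6, 24.6, 18.5 and 14.9 in WT. So had CDKA1, TIP41 and RPL24B, with 6.55, 14.2 and 11.25 against 18.5, 16.6 and 11.6. ELF3, PIF3 and LNK2 did too, with 11.25, 15.3 and 6.47 against 16.0, 17.0 and 16.6. LHCA1 was matched in pie1-5 replicate 1 alone, with 12.8 against 22.8. VEL1, CCA1 and PAD4 were matched in no other table. The smallest adjusted p of any narrow peak in pie1-5 was 0.276 (edgeR quasi-likelihood test), so none of these passed.

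**Figure D5:**
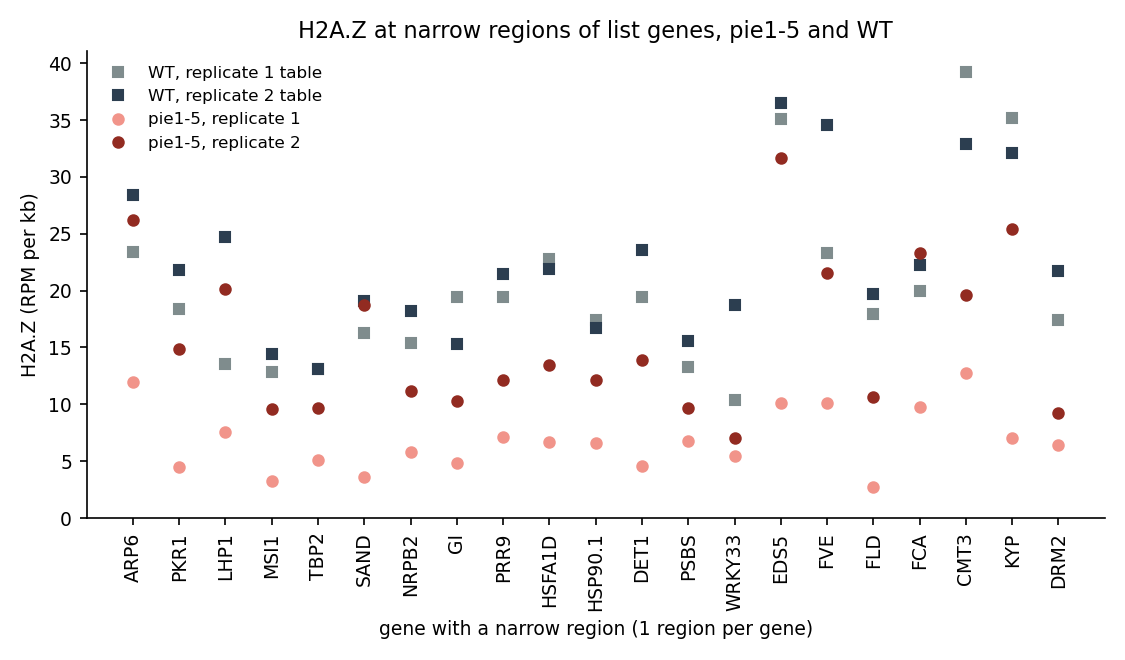
H2A.Z in RPM per kb (y axis) at the narrow peaks of 21 list genes (x axis) in the 2 WT libraries (squares) and the 2 pie1-5 libraries (circles). Replicate 1 of pie1-5 spans 2.74 to 12.8 and lies below both WT libraries at every gene shown, while replicate 2 spans 7.03 to 31.7 and reaches or passes a WT library at 4 genes.

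RNA was read for the genes that overlap a narrow peak. The 12 RNA libraries held 21.6 to 33.1 M reads over genes, and reads fell on 25807 genes in pkl-1 replicate 2 and on 21380 to 22847 in the others. The transcript of the mutated gene was 1.85-fold higher in the libraries labelled pkl-1 (PKL, adjusted p = 0.0247, a call lost whichever library was left out) and 6.81-fold higher in those labelled clf-28 (CLF, adjusted p = 7.99e-05), so neither checks its label by a loss, and PIE1 was 1.87-fold lower in pie1-5 (adjusted p = 0.0565, edgeR quasi-likelihood test). Of 5173 genes overlapping a narrow peak, 4585 (88.6%) passed the filter on low counts, against 45.1% of genes at wide regions touching H3K27me3 and 52.1% at narrow ones. Their median WT level was 1.94, 1.92 and 1.94 CPM (counts scaled to library size) per kb of gene span in the 3 WT libraries, close to the 1.84, 1.86 and 1.90 of all tested genes, while genes at wide regions touching H3K27me3 had 1.08, 1.103 and 1.12. When tested genes were divided into 4 equal classes of WT expression, narrow peaks overlapping 1 gene of the count table numbered 762, 1153, 1132 and 864 from the lowest to the highest class, and 281 lay at genes that were not tested. The middle classes held the most.

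The share of these genes with changed RNA was below that of all genes in each mutant. In pie1-5, 149 of 4585 were higher and 134 lower (6.17%), against 3.8% higher and 3.56% lower (7.36%) of all 20375 genes tested. In pkl-1, 58 were higher and 72 lower (2.84%), against 1.45% and 2.58% (4.03%). In clf-28, 30 were higher and 40 lower (1.53%), against 0.918% and 1.23% (2.15%). All of these are calls at an adjusted p below 0.05 in edgeR's quasi-likelihood test. The shares are near the background and no test of the difference was made. The counts depended on single libraries and on the tool: with 1 library left out they were 136 to 391 in pie1-5, 56 to 96 in pkl-1 and 24 to 52 in clf-28, in each mutant the fewest without WT replicate 3, and DESeq2 called 410, 245 and 130. The matching shares of all genes are not given, so these counts show only how the calls move. Genes at narrow regions touching H3K27me3 were called more often, in 12.3%, 8.25% and 7.5% of 400 tested genes in pie1-5, pkl-1 and clf-28. The 3 comparisons share the WT libraries. The cDNA kit does not mark strand, so reads from overlapping genes cannot be told apart.

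Of the 35 list genes with a narrow peak, 5 were called in RNA in at least 1 mutant. They were 3 in pie1-5, 3 in pkl-1 and 1 in clf-28, where 7.36%, 4.03% and 2.15% of all genes tested were called, and no test of the difference was made. GI, a clock gene of the photoperiod pathway, was higher in all 3 mutants. Its WT levels were 5.55, 4.32 and 5.05 CPM, and it reached 14.7, 14.2 and 16.3 in pkl-1, 15.3, 17.8 and 21.5 in clf-28 and 7.00, 17.0 and 19.7 in pie1-5. Every mutant library lay above every WT library, with log2 fold changes of 1.60 ± 0.29 (SE, n = 3; adjusted p = 0.00489, edgeR quasi-likelihood test), 1.87 ± 0.29 (adjusted p = 0.00294) and 1.55 ± 0.29 (adjusted p = 0.00513). The GI peak (chr1:8061801-8062600, inside the gene) held 4.87 and 10.3 RPM per kb of H2A.Z in pie1-5 and 11.4 and 16.1 in clf-28, against 19.4 and 15.3 in WT, and was matched in only 1 pkl-1 table (14.6 against 15.3). WRKY33, a defence transcription factor, went from 25.1, 17.8 and 28.9 CPM in WT to 51.1, 104 and 57.0 in pie1-5, 2.96-fold higher (adjusted p = 0.00686, edgeR quasi-likelihood test). EDS5, the transporter needed for salicylic acid accumulation, went from 2.1, 2.84 and 3.6 in WT to 6.82, 5.80 and 8.18 in pie1-5, or 2.44-fold higher (adjusted p = 0.0220, edgeR quasi-likelihood test), a call lost when any of 3 single libraries was left out (WT replicate 1, WT replicate 2 or pie1-5 replicate 3; adjusted p up to 0.0911). PAD4, a regulator of salicylic acid defence, went from 7.43, 4.63 and 6.72 in WT to 1.59, 1.51 and 1.18 in pkl-1, 4.37-fold lower (adjusted p = 0.00759, edgeR quasi-likelihood test). PKR1 went from 21.7, 23.0 and 25.2 in WT to 12.6, 13.7 and 15.1 in pkl-1, 1.69-fold lower (adjusted p = 0.0300, edgeR quasi-likelihood test), a call lost whichever of the 6 libraries was left out (adjusted p up to 0.127). At these 4 genes the groups did not overlap either.

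H2A.Z at the peaks of these defence genes was read next. The EDS5 peak (chr4:18185601-18186400) held 10.1 and 31.7 RPM per kb in pie1-5 against 35.1 and 36.5 in WT, and the WRKY33 peak (chr2:16108401-16108800) 5.47 and 7.03 against 10.4 and 18.8, the former in a matched region of 2000 bp. The PAD4 peak (chr3:19431401-19431800) was matched in no table but its own, where it held 26.5 in pkl-1 and 16.2 in WT. Other clock genes with a narrow peak, chosen after their values were seen, varied within pie1-5: CCA1 stood at 44.1, 1.53 and 1.36 CPM and LNK2 at 123, 14.9 and 10.5 in its 3 libraries, against 4.80, 4.94 and 7.25 and against 50.8, 71.2 and 52.5 in WT. Library pie1-5 1 thus stood apart from the other pie1-5 libraries at these genes, and neither gene was called in any mutant.

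Of the genes called in each mutant, the 5 with the smallest adjusted p in each direction were read. THIC, which makes the pyrimidine part of thiamine, was called higher in all 3. From 52.1, 62.4 and 45.8 CPM in WT it reached 135, 139 and 143 in pkl-1, 146, 169 and 171 in clf-28 and 94.2, 143 and 155 in pie1-5, which is 2.60-, 3.03- and 2.45-fold higher (adjusted p = 0.000794, 0.000577 and 0.00128, edgeR quasi-likelihood test). Its peak (chr2:12667001-12667800, inside the gene) held 19.4 and 23.5 RPM per kb in pkl-1 and 14.2 and 12.6 in clf-28, against 23.3 and 20.96 in WT. For pie1-5 replicate 1 it was 6.20 against 23.3. The match in pie1-5 replicate 2 was a region of 7400 bp, with 13.1 against 17.8 in WT. Also high in pkl-1 were the coactivator gene KELP (3.33-fold, adjusted p = 0.000263), AGP17 (3.02-fold, adjusted p = 0.000293) and AGP7 (3.91-fold, adjusted p = 0.00371), all by edgeR's quasi-likelihood test with no library of pkl-1 overlapping WT. AGP17 was also called higher in clf-28 (1.90-fold, adjusted p = 0.0224, edgeR quasi-likelihood test), a call lost when any of 5 single libraries was left out. In clf-28 the chloroplast lipocalin gene CHL (3.38-fold, adjusted p = 0.00226) and the carboxypeptidase-like gene SCPL34 (3.04-fold, adjusted p = 0.00199) were higher (edgeR quasi-likelihood test). CHL was also called higher in pkl-1 (2.62-fold, adjusted p = 0.00624) and in pie1-5 (2.22-fold, adjusted p = 0.0154, both edgeR quasi-likelihood test). SCPL34 was also called higher in pkl-1 (2.28-fold, adjusted p = 0.00822, edgeR quasi-likelihood test). The CHL call in pie1-5 was lost when any of 3 single libraries was left out. The SCPL34 call in pkl-1 was lost without WT replicate 3.

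Among the lower calls DMR6 and ECS1 were named in both pkl-1 and clf-28. DMR6, a salicylic acid hydroxylase that restrains immunity, was at 32.7, 51.2 and 37.6 CPM in WT, 2.78, 4.78 and 5.23 in pkl-1 and 7.28, 4.62 and 3.71 in clf-28. It was 9.45-fold lower in pkl-1 (adjusted p = 9.41e-06) and 7.78-fold lower in clf-28 (adjusted p = 4.87e-05, both edgeR quasi-likelihood test), and 49.3, 46.7 and 56.6 in pie1-5 (adjusted p = 0.494). ECS1, a cell wall protein gene, stood at 136, 130 and 160 CPM in pkl-1 and 462, 330 and 197 in clf-28, 9.43- and 4.06-fold below WT (adjusted p = 5.3e-06 and 0.000595, edgeR quasi-likelihood test). AT1G35710 and AT1G66880 were 12.5- and 5.89-fold lower in pkl-1 (adjusted p = 0.000148 and 5.3e-06, edgeR quasi-likelihood test), and AT2G41090 was 4.41-fold lower (adjusted p = 0.000138). In clf-28 these genes were also called lower, by 4.68-, 1.94- and 2.66-fold (adjusted p = 0.00671, 0.0171 and 0.00556, edgeR quasi-likelihood test). There the AT1G35710 call was lost without clf-28 replicate 2, and the AT1G66880 call when any of 4 single libraries was left out. In clf-28, AT4G04223 was 4.42-fold lower (adjusted p = 0.000562, edgeR quasi-likelihood test). AT1G15010 was 11.6-fold lower there (adjusted p = 0.00163, edgeR quasi-likelihood test), from 15.2, 23.2 and 81.3 CPM in WT, where 1 library stood far above the others, to 3.78, 3.43 and 3.07, and 5.57-fold lower without that library, WT replicate 3. It was also called lower in pkl-1 (6.68-fold, adjusted p = 0.00419) and in pie1-5 (3.30-fold, adjusted p = 0.0351, both edgeR quasi-likelihood test). The pie1-5 call was lost when any of 3 single libraries was left out. The DMR6 peak (chr5:8378801-8379600, inside the gene) held 7.73 and 18.9 RPM per kb of H2A.Z in clf-28 and 10.9 in pkl-1 replicate 2, against 16.7 and 13.8 in WT, so the clf-28 libraries lay on either side of WT.

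In pie1-5 the higher calls included LSU2 and APR1 and the lower calls MYB59 and IVD. LSU2, a gene induced by low sulfur, went from 2.48, 2.81 and 1.23 CPM in WT to 177, 25.2 and 27.8 in pie1-5, 34.8-fold higher (adjusted p = 0.000454, edgeR quasi-likelihood test) and 12.04-fold higher without pie1-5 replicate 1, the highest library. APR1, the adenylylsulfate reductase of sulfate assimilation, went from 8.96, 10.5 and 11.7 in WT to 97.9, 32.1 and 37.2 in pie1-5, 5.36-fold higher (adjusted p = 0.000568, edgeR quasi-likelihood test) and 3.34-fold higher without the same library. EXO, a brassinosteroid-responsive gene, was 6.05-fold higher (adjusted p = 0.000488, edgeR quasi-likelihood test). Of those that fell, MYB59, a transcription factor gene, went from 21.3, 18.9 and 21.01 CPM to 6.19, 7.17 and 7.67 (2.91-fold lower, adjusted p = 0.00019), and IVD, an enzyme of leucine breakdown, from 17.0, 18.9 and 19.9 to 5.42, 8.28 and 7.40 (2.64-fold lower, adjusted p = 0.000458, both edgeR quasi-likelihood test). AT1G09250 was lower in pie1-5 (3.27-fold, adjusted p = 0.000214) and in clf-28 (2.68-fold, adjusted p = 0.00128, edgeR quasi-likelihood test). In pkl-1, AT1G09250 and MYB59 were also called lower, by 1.76- and 1.62-fold (adjusted p = 0.0263 and 0.0325, edgeR quasi-likelihood test). Both pkl-1 calls were lost whichever library was left out. The pie1-5 and WT libraries did not overlap at any of these 6 genes. At the LSU2 peak (chr5:8443401-8444000, inside the gene), H2A.Z was 8.31 and 26.99 RPM per kb in pie1-5 and 22.7 and 33.4 in WT, and at the MYB59 peak (chr5:24082401-24083400, inside the gene) 8.52 and 16.2 against 15.9 and 13.9, where replicate 2 stood above its WT library. Of the same rule, AT2G41730 was 7.71-fold higher (adjusted p = 0.000509) and AT1G72060 and AT5G09240 were 5.34- and 5.04-fold lower (adjusted p = 0.000458 for each, edgeR quasi-likelihood test). AT1G72060 was also called lower in pkl-1 (4.46-fold, adjusted p = 0.000847) and in clf-28 (2.48-fold, adjusted p = 0.0314, both edgeR quasi-likelihood test). Its clf-28 call was lost when any of 4 single libraries was left out. AT5G09240 was instead called higher in pkl-1 (2.09-fold, adjusted p = 0.0391, edgeR quasi-likelihood test), a call lost whichever library was left out.

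AT1G75945 had 0 reads in all 3 WT libraries. It had 74, 54 and 9 reads in pkl-1, 63, 34 and 58 in clf-28 and 268, 161 and 144 in pie1-5. Against a floor of 3 reads over the WT group it was at least 42.7-fold higher in pkl-1, 52.4-fold in clf-28 and 178-fold in pie1-5 (adjusted p = 0.0012, 0.00218 and 0.000214, edgeR quasi-likelihood test). Its narrow peak (chr1:28515401-28515800, inside the gene) held 22.0 RPM per kb in pkl-1 replicate 2 and 3.62 in WT, a log2 ratio of 2.60, and was matched in no other table. It is a peak of 1 mutant library, and the value has no replicate.

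The H2A.Z ratio of narrow peaks was then set beside the RNA call of the gene. In pie1-5 the median log2 ratios in replicates 1 and 2 were -1.53 and -0.50 at peaks of the 149 genes with higher RNA, -1.19 and -0.37 at those of the 134 genes with lower RNA and -1.47 and -0.49 at those of genes not called. In both replicates the median of peaks at genes with lower RNA was the closest to WT. That median rests on 81 and 116 of the 135 peaks at these genes in replicates 1 and 2. At genes with higher RNA, 138 and 143 of 153 peaks were matched. In pkl-1 they were -0.05 and -0.05, 0.00 and 0.09, and 0.05 and 0.00, and in clf-28 -0.42 and -0.08, -0.37 and 0.17, and -0.43 and -0.15. By WT expression from the lowest to the highest of the 4 classes, the medians in pie1-5 were -1.52, -1.50, -1.45 and -1.35 in replicate 1 and -0.49, -0.50, -0.52 and -0.42 in replicate 2. These are descriptions over peaks, with no test.

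Markers of other organs were read in RNA because narrow peaks describe whole shoots. The root and hypocotyl gene PYK10 was at 22.4, 35.5 and 24.3 CPM in WT, 52.4, 56.3 and 51.2 in pkl-1, 33.0, 31.2 and 42.7 in clf-28 and 56.1, 69.8 and 69.2 in pie1-5 (adjusted p = 0.00987 in pkl-1 and 0.00149 in pie1-5, edgeR quasi-likelihood test). Its call in pkl-1 was lost without WT replicate 1 or 3 (adjusted p up to 0.0666). Of the other 3 root markers, RHD6 and PHT1;1 did not pass the filter on low counts and CASP1 was at most 0.746 CPM. The pollen markers LAP6 and QRT3 were at most 2.52 and 0.86 CPM. The part of PYK10-expressing cells in any RNA value above was not tested.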

How the data were processed

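H2A.Z and H3K27me3 ChIP and RNA libraries of whole shoots were used, and genotype and replicate number were taken from the labels. Per the submitters' processing notes, reads were handled with Trimmomatic, Bowtie2, SICER, edgeR, bedtools and deepTools on the build TAIR10. The sources used here give no version for these tools. For each mutant library and mark the authors deposited 1 table in which each region, a run of 200 bp windows, carries the whole-number read count of the mutant and of WT. The authors deposited the same values as RPM, with the mutant to WT ratio and with p-values and FDR, per the file headers. The deposited RNA table holds read counts per gene. The authors' ratios and p-values were not used for any call. WT columns carry no replicate number, so each WT library is named by the tables it stands in, and that a WT column of a replicate 1 table is WT replicate 1 is assumed.

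Library totals were recovered from counts and RPM. Regions were followed by largest overlap, of at least 1 bp, and tested with edgeR 4.0.16 (quasi-likelihood, R 4.3.3) with library totals and region length as offset, after filterByExpr and with Benjamini-Hochberg adjustment over all H2A.Z regions tested. RNA counts were tested with TMM factors over all genes in 1 fit of the 4 groups. Calls have an adjusted p below 0.05. SE is that of the log2 fold change. DESeq2 1.42.0 was an alternative. Simulated data were used to test the main edgeR fits only, for H2A.Z in each mutant and for RNA in pkl-1. The simulated spread was fixed in advance and not taken from the data. The p-values of edgeR with 2 ChIP libraries per group rest on few residual degrees of freedom. Levels in RPM per kb and ratios use single libraries and cover counting error only where a counting SD is given.

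Gene positions came from a RefSeq table of TAIR10.1 that gives no strand. The planned assignment by gene start was therefore replaced by any overlap of the gene with the region, and no promoter sequence is shown. As a check of placing, all 14 of 14 known Polycomb target genes tried fell within the H3K27me3 table that the rule uses. Genes named are the 5 peaks with the highest WT level, and, with values, list genes and the 5 called genes with the smallest adjusted p per mutant and direction. The plan was to give up to 3 genes of each list in AGI order, and the list genes given values depart from it. Since no peak was called, single peaks were also picked after their values were seen, as stated beside them. So were the RNA values of CCA1 and LNK2. The members, gene lists and tests were chosen with earlier results of these data known. Input and H3 samples were not analysed here.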

Additional observations from a re-analysis of the deposited data

How the results depend on the processing

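With TMM factors the median fitted log2 ratio of the narrow peaks was 0.0047 in clf-28 and -0.1425 in pie1-5, in place of -0.27 and -0.87, since this scaling sets the bulk of regions near 0. With replicate number as a replicate block, 1 peak was lower and 7 higher in pkl-1 (52 and 66 of all 10689 regions), 5 were lower and 0 higher in clf-28 (10 and 4 of all 15012) and 0 in pie1-5 (0 of all 14875). Only 2 numbers are shared, so these do not establish pairing (same-numbered deviations correlated at 0.63, 0.30 and 0.18), and RNA libraries of the same number did not deviate together (-0.04 to 0.08). With single libraries left out, the median ranged from -0.0686 to 0.1223 in pkl-1, from -0.4683 to -0.1244 in clf-28 and from -1.50 to -0.43 in pie1-5, and the peaks called lower in pie1-5 from 0 to 3168 (14119 of all 14875 regions), the latter without pie1-5 replicate 2, a fit in which the WT libraries alone give the spread. Genes called in RNA numbered 300, 197 and 434 of 5012 in pkl-1, clf-28 and pie1-5 with no filter on low counts and 245, 130 and 410 of 4585 with DESeq2. With single libraries left out they ranged from 56 to 96, 24 to 52 and 136 to 391. Shares of all genes under these settings are not given, so the counts are not set against a background. With an end of the gene inside the peak, an alternative added after seeing the data, they were 35, 18 and 80 of 1332 tested genes. These are 2.63%, 1.35% and 6.01%, against 4.03%, 2.15% and 7.36% of all genes. The cause of these shifts was not tested. For peaks of at most 600 bp, peaks outside all H3K27me3 tables, a match of at least 50% of the longer region and no length offset, the median ranged from 0.0112 to 0.0215 in pkl-1, from -0.289 to -0.261 in clf-28 and from -0.899 to -0.871 in pie1-5. Counts of 0 called peaks under an alternative are no sign of stability with 2 libraries per group. The planned gene-start assignment was not run, as no strand was given. Depth limits single peaks most in pie1-5 replicate 1, with a median of 40 reads per peak.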
